A study of Mus musculus with 12 samples.

Results

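The genes of prostaglandin synthesis and of the prostaglandin receptors were followed in mouse pancreatic stellate cells (PSCs), the fibroblast-like cells of the pancreas, with and without tumour cells and macrophages. The 10 genes were *Pla2g4a*, *Ptgs1*, *Ptgs2*, *Ptges*, *Ptgis*, *Ptgds*, *Ptger2*, *Ptger4*, *Ptgfr* and *Hpgd*, taken by symbol from a count table of 39179 genes. The PSCs carried mCherry and spent 72 h alone (mono-PSCs, below mono cells), with PCC-EGFP tumour cells (2W-PSCs, below 2W cells), or with both PCC-EGFP and MØ-TagBFP macrophages (3W-PSCs, below 3W cells). They were then isolated by cell sorting, with a gate for mCherry that left out cells with EGFP or TagBFP signal. The PSCs carried the strain label C57BL/6 and were 1 immortalised clone, PCCs are a mouse pancreatic tumour line, and MØs were of the RAW264.7 macrophage line. Each culture gave 4 libraries, labelled as biological replicates, so that the spread between libraries is that of repeated cultures of the same cell lines.

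Prostaglandins are short-lived lipid signals made from arachidonic acid. The phospholipase encoded by *Pla2g4a* frees arachidonic acid from membranes, the cyclooxygenases encoded by *Ptgs1* (COX-1) and *Ptgs2* (COX-2) convert it to prostaglandin H2, and terminal synthases turn that intermediate into prostaglandin E2 (*Ptges*), prostacyclin (*Ptgis*) or prostaglandin D2 (*Ptgds*). The products act on G protein-coupled receptors such as EP2 (*Ptger2*), EP4 (*Ptger4*) and FP (*Ptgfr*), and the dehydrogenase encoded by *Hpgd* starts their breakdown. COX-1 is known as the constitutive and COX-2 as the inducible enzyme, and prostaglandin E2 is a mediator of inflammation in fibroblast-rich tissue.

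Of the 10 genes, 6 passed the filter on low counts and were tested between cultures (*Pla2g4a*, *Ptgs1*, *Ptgs2*, *Ptges*, *Ptgis* and *Ptger4*). The other 4 (*Ptgds*, *Ptger2*, *Ptgfr* and *Hpgd*) were at or near 0 counts. *Ptgs2* and *Ptges* were higher in 3W cells than in both other cultures, *Ptgs1* was higher in 3W cells than in mono cells, and *Ptgis* was lower in 3W cells than in 2W cells. None of the 6 was called between 2W cells and mono cells, where 0.991% of all tested genes were called.

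The start regions of *Ptgs2* and *Ptges*, the genes with the largest increases among the 10, are shown with that of *Ptgs1*, the cyclooxygenase that changed less. Each holds 250 bases before and 50 bases after the start site in RefSeq on GRCm38.p6, written 5′ to 3′ on the strand of the gene, at chr1:150099781-150100080 (plus strand) for *Ptgs2*, chr2:30903248-30903547 (minus strand) for *Ptges* and chr2:36230176-36230475 (plus strand) for *Ptgs1*. Capitals mark matches to any of 8 searched motifs.
Ptgs2: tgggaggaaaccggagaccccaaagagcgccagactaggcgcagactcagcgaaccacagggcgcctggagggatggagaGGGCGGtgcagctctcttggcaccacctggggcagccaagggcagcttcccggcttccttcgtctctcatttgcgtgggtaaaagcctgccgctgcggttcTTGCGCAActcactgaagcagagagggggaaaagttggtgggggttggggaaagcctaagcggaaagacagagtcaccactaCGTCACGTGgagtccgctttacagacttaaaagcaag
Ptges: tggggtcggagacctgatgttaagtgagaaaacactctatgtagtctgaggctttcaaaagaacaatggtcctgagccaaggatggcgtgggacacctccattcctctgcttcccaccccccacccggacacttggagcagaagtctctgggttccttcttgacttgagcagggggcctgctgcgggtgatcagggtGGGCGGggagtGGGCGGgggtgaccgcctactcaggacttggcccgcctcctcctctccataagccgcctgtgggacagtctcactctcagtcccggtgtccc
Ptgs1: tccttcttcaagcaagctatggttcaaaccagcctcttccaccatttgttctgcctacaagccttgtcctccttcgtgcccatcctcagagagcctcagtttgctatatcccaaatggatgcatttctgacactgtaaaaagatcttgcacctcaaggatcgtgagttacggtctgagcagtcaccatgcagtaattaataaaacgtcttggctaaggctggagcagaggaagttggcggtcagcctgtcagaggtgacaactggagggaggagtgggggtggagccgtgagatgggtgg

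The motifs were searched on both strands, and position 1 is the start site. The *Ptgs2* window held the GC box GGGCGG at position -170, the C/EBP-like TTNNGCAA at position -69, the cyclic AMP response half-site TGACG at position 14 on the opposite strand, and the E-box CACGTG at position 17. The last of these share bases with each other, and TTNNGCAA and CACGTG matched on both strands at the same place. The *Ptges* window held GGGCGG at positions -53 and -42, and the *Ptgs1* window held no match. Among 32851 start regions of the same length in the mouse genome, GGGCGG was in 35.7%, TTNNGCAA in 10.8%, TGACG in 20.8% and CACGTG in 7.15%. The other motifs were TTCNNNGAA, in 8.30% of all windows, TGANTCA, in 7.81%, TATAAA, in 13.6%, and the NF-kB motif, in 5.80%. None of these was in the 3 windows shown. GC content was 59.3% in the *Ptgs2* window, 60.0% in the *Ptges* window and 50.7% in the *Ptgs1* window, against a median of 52.7% over all windows. A match is a string of letters and not evidence of binding.

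Total counts ranged from 4561817 to 8093368 per library. Across all genes, edgeR (quasi-likelihood test, p adjusted after Benjamini and Hochberg) called 111 of 11199 genes (0.991%) between 2W cells and mono cells, 3054 of 11551 (26.4%) between 3W cells and mono cells, and 1230 of 11513 (10.7%) between 3W cells and 2W cells, at an adjusted p under 0.05. Replicate 2 of 2W cells stood apart, with Spearman correlations of 0.837 to 0.907 to the other 2W cells across genes, where the remaining pairs of one culture reached 0.940 to 0.986. All 10 listed mesenchymal markers were counted in each culture, with a summed level of 13620 to 16170 CPM (counts per 1000000 reads counted) in mono cells, 17283 to 22332 CPM in 2W cells and 9326 to 11526 CPM in 3W cells, and *S100a6* or *Sparc* was the highest of them. Levels below are CPM scaled by TMM normalisation over the 12 libraries. The 3′ counting method reads about 1 fragment per transcript, so levels were not divided by transcript length, and differences in priming between genes were not measured.

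Sorted PSC libraries also held transcripts of genes listed as markers of the macrophages and tumour cells. Whether these transcripts came from carried-over cells or from the PSCs themselves was not tested. The 16 macrophage markers in the table summed to 10.3 to 15.1 CPM in mono cells, 13.8 to 18.7 CPM in 2W cells and 40.6 to 87.8 CPM in 3W cells, where *Cd14* was the highest with a mean of 22.8 CPM. Of the 16, 7 had no count in mono cells and 2W cells and only *Emr1* had none in 3W cells. The leukocyte gene *Ptprc* averaged 0.839 CPM and the lysozyme gene *Lyz2* 5.19 CPM in 3W cells. The 12 epithelial markers summed to 1.20 to 3.30 CPM in mono cells, 74.3 to 145 CPM in 2W cells and 52.7 to 90.1 CPM in 3W cells, led by *Krt18* in both co-cultures, while *Epcam* had 0 counts in 2W cells and no more than 3 counts in any 3W library. Because bulk RNA was measured, fewer cells of a type and less RNA per cell cannot be told apart.

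**Figure D1:**
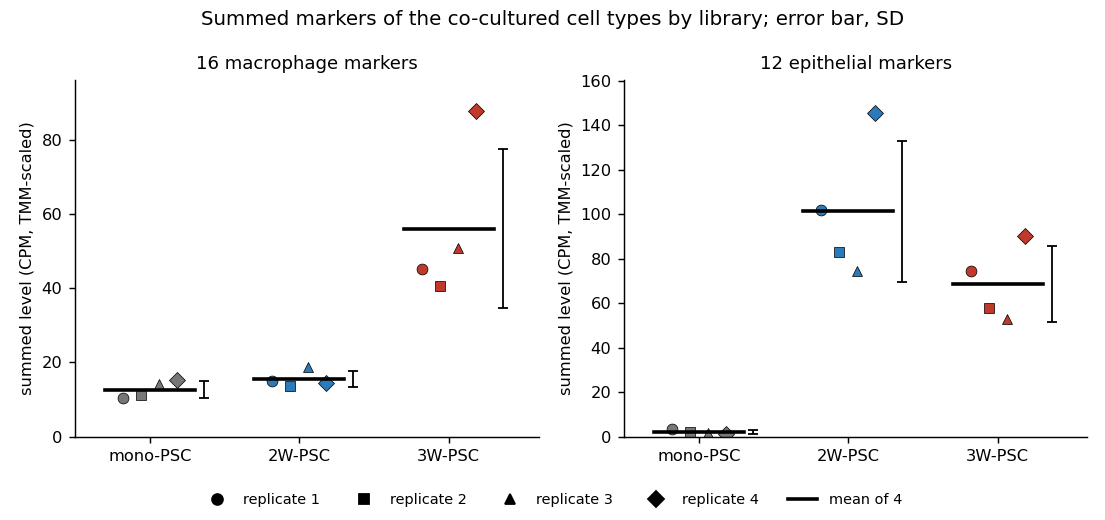
Summed level in CPM of 16 macrophage markers (left) and 12 epithelial markers (right) in each library (points), with the mean of 4 libraries (line) and SD (error bar) per culture. The macrophage sum is highest in replicate 4 of 3W cells (87.8 CPM), and the epithelial sum is above 50 CPM in every co-culture library and at most 3.30 CPM in mono cells.

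For the step that frees arachidonic acid, the transcript of *Pla2g4a* (ENSMUSG00000056220, GRCm38 chr1:149829618-149961290, minus strand), the gene of cytosolic phospholipase A2, was counted. Enzyme activity and arachidonic acid itself were not measured. The *Pla2g4a* level was 58.6, 72.2, 115.9 and 74.8 CPM in replicates 1 to 4 of mono cells, 78.3, 54.0, 97.8 and 73.0 CPM in those of 2W cells, and 60.0, 65.7, 70.9 and 64.9 CPM in those of 3W cells. All 3 ranges overlapped. Against mono cells, the log2 fold change was -0.06 in 2W cells (95% confidence interval -0.60 to 0.48, adjusted p = 0.999) and -0.30 in 3W cells (-0.69 to 0.09, adjusted p = 0.249) by edgeR. Between 3W cells and 2W cells it was -0.22 (-0.63 to 0.19, adjusted p = 0.504). No difference was detected in this transcript, and these intervals give the sizes of change that the data leave possible.

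The constitutive cyclooxygenase gene *Ptgs1* (ENSMUSG00000047250, GRCm38 chr2:36230426-36252272, plus strand) had the highest mean level of the 10 genes in each culture. It had 88.2, 92.2, 90.4 and 92.0 CPM in mono cells, 116.7, 94.6, 97.9 and 136.2 CPM in 2W cells, and 117.8, 141.2, 118.4 and 149.9 CPM in 3W cells. The mono libraries lay close together and below every library of both co-cultures, while the co-cultures overlapped. In 3W cells *Ptgs1* was 1.45-fold higher than in mono cells (log2 fold change 0.54, standard error 0.14, adjusted p = 0.0103). This call rested on replicate 4 of 3W cells, the library with the highest *Ptgs1* level and the highest macrophage marker sum, without which the log2 fold change was 0.47 with an adjusted p of 0.0507. The part of macrophage transcripts in this difference was not tested. In 2W cells the log2 fold change against mono cells was 0.32 (standard error 0.18, adjusted p = 0.859), although the 4 libraries of either culture did not overlap. Between 3W cells and 2W cells it was 0.24 (standard error 0.17, adjusted p = 0.410). *Ptgs1* shares 148 exonic bases with *Gm43621* on the opposite strand, and the strand setting of the counting is not given in the sources used here.

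The inducible cyclooxygenase gene *Ptgs2* (ENSMUSG00000032487, GRCm38 chr1:150100031-150108227, plus strand) was low in mono cells and 2W cells and higher in all 4 libraries of 3W cells. Replicates 1 to 4 held 12.9, 5.35, 9.0 and 6.49 CPM in mono cells, 11.1, 4.18, 12.1 and 4.79 CPM in 2W cells, and 35.1, 22.2, 39.9 and 17.8 CPM in 3W cells. The lowest 3W library lay above the highest of the other 8, and the 3W libraries themselves spread from 17.8 to 39.9 CPM. Raw counts were 17 to 79 in the 8 libraries of mono cells and 2W cells and 137 to 314 in 3W cells. *Ptgs2* was 3.52-fold higher in 3W cells than in 2W cells (log2 fold change 1.82, standard error 0.39, adjusted p = 0.0136) and 3.40-fold higher than in mono cells (log2 fold change 1.76, standard error 0.31, adjusted p = 0.000372). Between 2W cells and mono cells the log2 fold change was -0.04, with a 95% confidence interval from -0.97 to 0.90. Without replicate 1 of 3W cells the difference from 2W cells kept its size (log2 fold change 1.71) and had an adjusted p of 0.0513. Replicate 4 of 3W cells, with the highest macrophage marker sum (87.8 CPM), had the lowest *Ptgs2* level of that culture. Replicate 3, with the next highest sum (50.9 CPM), had the highest *Ptgs2* level. The part of macrophage transcripts in the *Ptgs2* difference was not tested.

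The terminal synthase gene *Ptges* (ENSMUSG00000050737, GRCm38 chr2:30889471-30929863, minus strand) encodes the microsomal prostaglandin E synthase that is often induced together with COX-2. It was at 2.61, 1.39, 3.96 and 2.52 CPM in mono cells, 4.20, 4.91, 3.65 and 7.83 CPM in 2W cells, and 26.2, 28.2, 16.2 and 15.8 CPM in 3W cells. The 3W cells lay above every other library, and mono cells and 2W cells overlapped at 1 library each. In raw counts, *Ptges* had 7 to 22 in mono cells, 20 to 49 in 2W cells and 122 to 243 in 3W cells. *Ptges* was 8.14-fold higher in 3W cells than in mono cells (log2 fold change 3.02, standard error 0.32, adjusted p = 2.43e-06) and 4.18-fold higher than in 2W cells (log2 fold change 2.06, standard error 0.32, adjusted p = 0.00270). These calls held in all 13 alternative fits of each comparison. In 2W cells the log2 fold change against mono cells was 0.99 (95% confidence interval -0.03 to 2.00, adjusted p = 0.708), so that a difference of this size was not separated from the spread between libraries. The lowest *Ptges* level among 3W cells was that of replicate 4, the library with the highest macrophage marker sum. The part of macrophage transcripts in the *Ptges* difference was not tested. Replicates 1 and 2 of 3W cells were the highest in *Ptges*, whereas replicates 1 and 3 were the highest in *Ptgs2*, so that these genes did not share an order among the 3W libraries.

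The prostacyclin synthase gene *Ptgis* (ENSMUSG00000017969, GRCm38 chr2:167191805-167240604, minus strand) moved the other way. Its level was 58.8, 81.3, 72.0 and 73.8 CPM in mono cells, 74.0, 125.7, 91.4 and 118.3 CPM in 2W cells, and 52.9, 58.0, 57.9 and 55.1 CPM in 3W cells. All 3W libraries were below all others and close together, and 2W libraries had the widest spread. In 3W cells *Ptgis* was 1.83-fold lower than in 2W cells (log2 fold change -0.87, standard error 0.19, adjusted p = 0.0142). The direction was the same in all 13 alternative fits, but the adjusted p rose to between 0.0506 and 0.0578 without replicate 4 of 2W cells or without replicate 1, 2 or 4 of 3W cells. Against mono cells the log2 fold change was -0.35 (standard error 0.15, adjusted p = 0.0919), and without replicate 1 of mono cells, which had the lowest level there, it was -0.44 with an adjusted p of 0.0233. Between 2W cells and mono cells *Ptgis* differed by 0.54 on the log2 scale (standard error 0.21, adjusted p = 0.487). *Ptgis* shares 156 exonic bases with *1110018N20Rik* on the opposite strand.

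*Ptgds*, which encodes the lipocalin-type prostaglandin D synthase, had 1, 7, 3 and 3 counts in mono cells, a single count in replicate 4 of 2W cells and 0 counts in 3W cells. At the totals of the 3W libraries, 0 counts allow a level of up to 0.372 to 0.416 CPM, a limit for counting error only. *Ptgds* did not pass the filter on low counts. Without the filter, edgeR gave an adjusted p of 0.0264 for the lower level in 3W cells than in mono cells, and DESeq2's Wald test gave 0.0346, on 14 counts in all in mono cells.

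**Figure D2:**
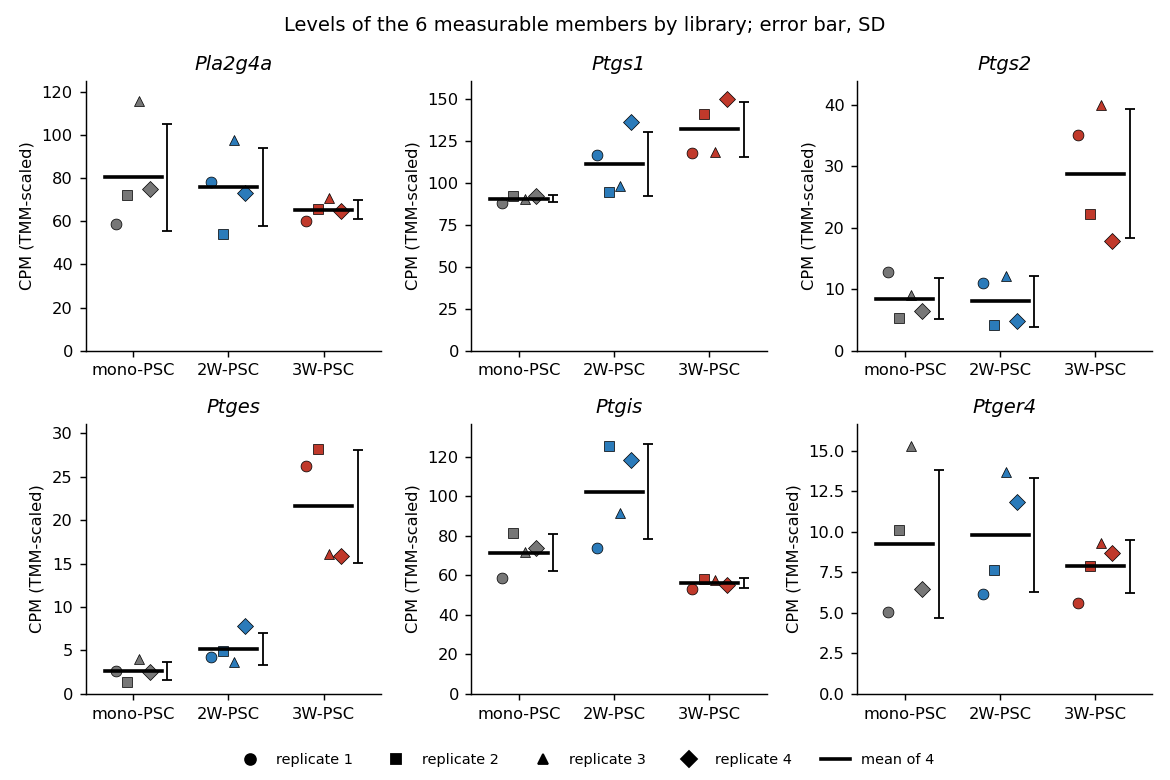
Level in CPM (vertical axes, starting at 0, with a scale of their own in each panel) of the 6 testable genes in each of 12 libraries (points), with the mean of 4 libraries (line) and SD (error bar) per culture. *Ptgs2* and *Ptges* are above all other libraries in 3W cells, *Ptgis* is below them, and the 3 ranges of *Pla2g4a* and of *Ptger4* overlap.

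Among the receptors, only the EP4 gene *Ptger4* (ENSMUSG00000039942, GRCm38 chr15:5206661-5244187, minus strand) could be tested. It had 5.04, 10.1, 15.3 and 6.49 CPM in mono cells, 6.16, 7.61, 13.7 and 11.8 CPM in 2W cells, and 5.58, 7.89, 9.29 and 8.69 CPM in 3W cells. The cultures overlapped throughout. The log2 fold change against mono cells was 0.12 in 2W cells (95% confidence interval -0.75 to 0.99, adjusted p = 0.999) and -0.22 in 3W cells (-0.93 to 0.48, adjusted p = 0.661), and between 3W cells and 2W cells it was -0.32 (-1.02 to 0.37, adjusted p = 0.559), all in edgeR's test. *Ptger4* shares 1097 exonic bases with *Gm15937* and *Ttc33* on the opposite strand.

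The EP2 gene *Ptger2* had 0 counts in 11 libraries and 8 counts (1.04 CPM) in replicate 4 of 3W cells, the library with the highest macrophage marker sum. The FP gene *Ptgfr* had 1 count, in the same library. Neither was called without the filter on low counts (edgeR adjusted p = 0.150 for *Ptger2* and 0.568 for *Ptgfr* between 3W cells and mono cells). The part of macrophage transcripts in the *Ptger2* counts was not tested. *Hpgd*, the gene of the enzyme that starts prostaglandin breakdown, had 0 counts in all 12 libraries, which allows up to 0.371 to 0.658 CPM per library.

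Other receptors of the same ligands were looked up after the values of the 10 genes had been seen. The EP1 gene *Ptger1* averaged 2.92 ± 1.18 CPM in mono cells, 6.57 ± 2.87 CPM in 2W cells and 4.02 ± 1.44 CPM in 3W cells (SD, n = 4 each), with no call in any comparison (lowest adjusted p = 0.319, edgeR). The EP3 gene *Ptger3* had 1 count in all. The prostacyclin receptor gene *Ptgir* averaged 0.785 ± 0.540 CPM in mono cells, 0.938 ± 0.676 CPM in 2W cells and 2.00 ± 0.653 CPM in 3W cells (SD, n = 4 each), with an adjusted p of 0.141 between 3W cells and mono cells in edgeR's test. *Ptger4* thus had the highest mean CPM of the 4 EP receptor genes in each culture.

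In all, 0 of the 6 testable genes were called between 2W cells and mono cells, beside 0.991% of all tested genes, so that this count is no result about the 6. In that comparison 1 of the 6 had an unadjusted p under 0.05, and DESeq2 also called 0. Between 3W cells and mono cells 3 were called, all higher, against 13.4% of all tested genes called higher. Between 3W cells and 2W cells 3 were called, 2 higher and 1 lower, against 5.73% of all tested genes called higher and 4.95% called lower. The 3 comparisons share libraries in pairs and are not independent. In two-sided exact permutation tests of each gene alone on log2 CPM, every non-overlapping pair reached p = 0.0286, the smallest that 4 libraries against 4 allow, and after adjustment over the 18 tests these were at 0.0643.

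**Figure D3:**
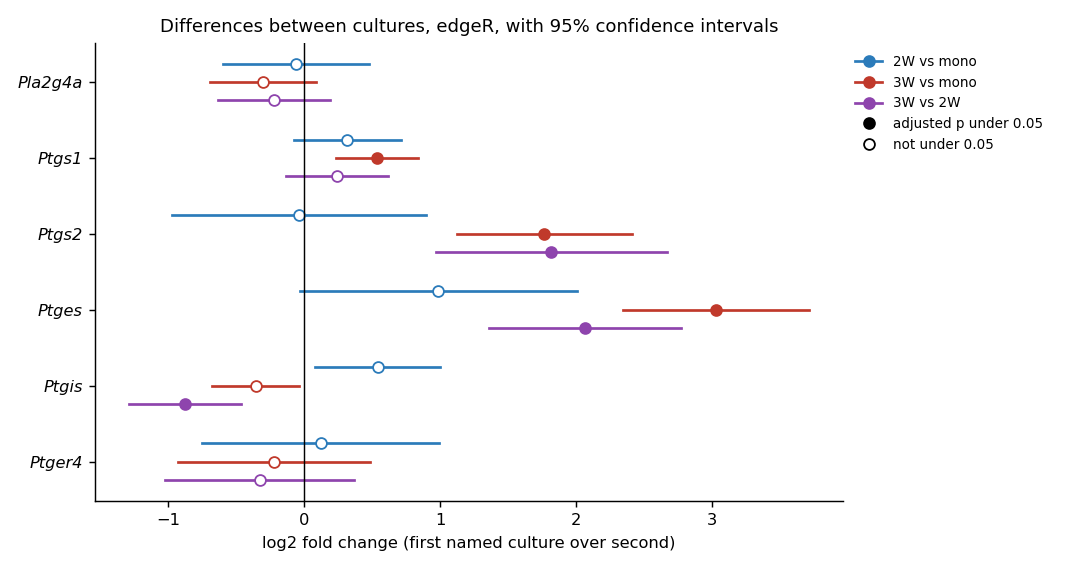
Log2 fold changes (horizontal axis, first named culture over second) of the 6 testable genes in the 3 comparisons, with 95% confidence intervals from edgeR's quasi-likelihood fit. Filled points have an adjusted p under 0.05 over all genes. *Ptges* and *Ptgs2* are filled to the right in both comparisons with 3W cells, *Ptgs1* is filled against mono cells only, and *Ptgis* is filled to the left between 3W cells and 2W cells.

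Within a library, the ratio of 2 genes does not depend on the scaling between libraries. The ratio of *Ptgs2* to *Ptgs1* counts was 0.146, 0.0581, 0.0996 and 0.0706 in mono cells, 0.0948, 0.0442, 0.123 and 0.0352 in 2W cells, and 0.298, 0.157, 0.337 and 0.119 in 3W cells. Here 3W replicate 4 fell inside the range of the other cultures, so that the cyclooxygenase ratio overlapped. The ratio of *Ptges* to *Ptgis* counts was 0.0171 to 0.0550 in mono cells, 0.0391 to 0.0661 in 2W cells and 0.279 to 0.495 in 3W cells, with no overlap between 3W cells and the other cultures. Its mean was 0.0377 ± 0.0161 in mono cells, 0.0505 ± 0.0132 in 2W cells and 0.387 ± 0.120 in 3W cells (SD, n = 4 each). *Ptgis* therefore still had more counts than *Ptges* in every library. The ratio of *Ptger2* to *Ptger4* was 0 in 11 libraries and 0.119 in replicate 4 of 3W cells. These ratios are descriptions of genes whose differences are tested above.

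**Figure D4:**
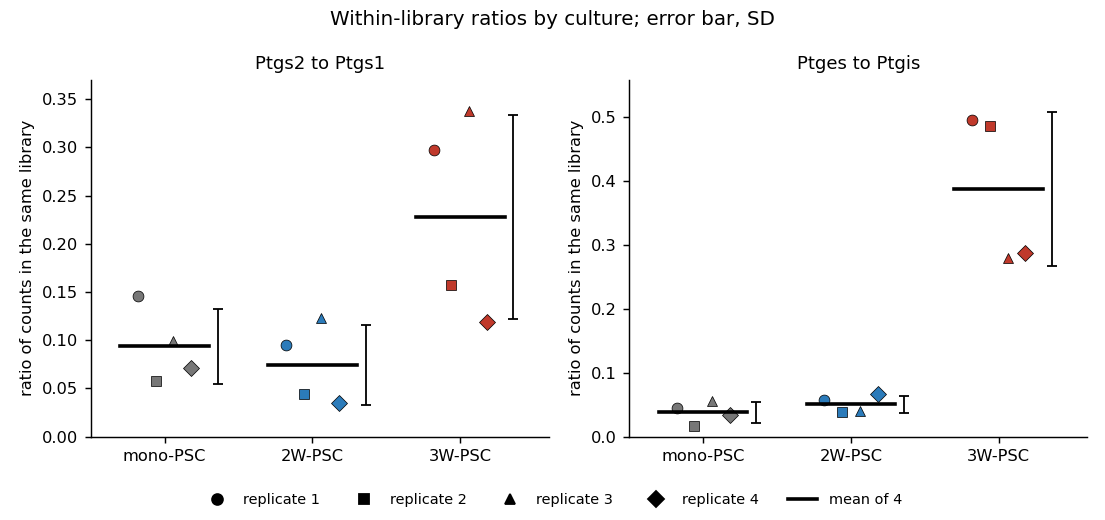
Ratio of *Ptgs2* to *Ptgs1* counts (left) and of *Ptges* to *Ptgis* counts (right) in each library (points), with the mean of 4 libraries (line) and SD (error bar) per culture. The *Ptges* to *Ptgis* ratio is at most 0.0661 in mono cells and 2W cells and at least 0.279 in 3W cells, while the *Ptgs2* to *Ptgs1* ratio of 3W replicate 4 (0.119) lies among those of the other cultures.

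In the order of mean CPM, *Ptgs1*, *Pla2g4a* and *Ptgis* took the first 3 places in each culture. In mono cells and 2W cells these 3 overlapped with their neighbours in the order, and the third lay clear of *Ptger4* and *Ptgs2*, which overlapped each other. In 3W cells, *Ptgs1* (131.8 ± 16.2 CPM), *Pla2g4a* (65.4 ± 4.43 CPM) and *Ptgis* (56.0 ± 2.47 CPM) were separated from each other in every library (SD, n = 4 each). *Ptgs2* (28.7 ± 10.5 CPM) and *Ptges* (21.6 ± 6.52 CPM) followed and overlapped each other, both above *Ptger4* (7.86 ± 1.63 CPM; SD, n = 4 each).

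Beyond the 10 genes, 123 genes around the pathway were listed in 6 groups, and 118 of them were in the table. Of those tested, 1 of 68 was called between 2W cells and mono cells, beside 0.991% of all genes. Between 3W cells and mono cells 25 of 72 were called (12 higher, 13 lower), beside 26.4% of all genes, and between 3W cells and 2W cells 10 of 71 (5 higher, 5 lower), beside 10.7%. The median log2 fold changes of these genes were 0.07, 0.11 and -0.04, beside 0.020, 0.012 and 0.0025 for all genes tested. Examples are the genes with the smallest p of each group.

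The group of transport and turnover genes, which also holds multidrug transporters, had the most calls higher. Of 9 tested, 6 were higher and 1 lower in 3W cells than in mono cells (median log2 fold change 1.71), beside 13.4% and 13.0% of all tested genes, and 3 were higher than in 2W cells, beside 5.73%. *Slco2a1*, the prostaglandin uptake transporter, had 0.396 to 5.22 CPM in mono cells, 0.246 to 3.33 CPM in 2W cells and 13.3 to 27.7 CPM in 3W cells. It was 5.99-fold higher in 3W cells than in mono cells (log2 fold change 2.58, adjusted p = 0.000225) and 9.25-fold higher than in 2W cells (3.21, adjusted p = 0.00247) in edgeR's test. The organic anion transporter gene *Slco3a1* was at 5.35 to 16.5 CPM in mono cells and 39.9 to 50.6 CPM in 3W cells (log2 fold change 1.95, adjusted p = 2.73e-05), and *Slco4a1* was 6.60-fold higher in 3W cells than in mono cells (adjusted p = 1.39e-06). Against 2W cells *Slco4a1* was not called (log2 fold change 1.84, edgeR adjusted p = 0.0719), but was in 4 of 13 alternative fits. The multidrug transporter genes *Abcb1a* and *Abcb1b* were also called higher in 3W cells than in mono cells. *Abcb1a* had at most 3 counts in each mono library, so that no fold is given, 0.737 to 3.64 CPM in 2W cells and 8.78 to 22.2 CPM in 3W cells (log2 fold change 2.39 between 3W cells and 2W cells, adjusted p = 0.00630). *Abcb1b* was 3.28-fold higher in 3W cells than in mono cells (adjusted p = 2.09e-05), and between 3W cells and 2W cells its adjusted p was 0.0567, or 0.000373 without replicate 2 of 2W cells. Of the 75-base windows at the 3′ ends of their transcripts, 17.2% for *Abcb1a* and 8.84% for *Abcb1b* also occur in another gene of the family, so reads may be split between them. On the opposite strand, exons of another gene overlap 553 bases of *Abcb1a*, 143 of *Abcb1b* and 104 of *Slco2a1*.

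Other prostanoid synthase genes, of which 10 were tested, were lower in 3W cells than in mono cells for 4 genes and higher for 1, beside 13.0% and 13.4% of all tested genes. *Gstm2*, a glutathione transferase, had 149 to 221 CPM in mono cells and 55.3 to 93.9 CPM in 3W cells (log2 fold change -1.43, adjusted p = 2.00e-05, edgeR), and *Cbr1*, a carbonyl reductase that can reduce prostaglandin E2, had 36.3 to 75.8 CPM and 23.8 to 32.9 CPM (-0.90, adjusted p = 0.00393). *Akr1b7*, an aldo-keto reductase with prostaglandin F synthase activity, had 2.09 to 9.36 CPM in mono cells and 0.127 to 0.930 CPM in 3W cells (-3.59, adjusted p = 0.000355). *Akr1b7* had only 1 to 7 counts per 3W library, near the limit of counting, so that the size of this fall is imprecise. Its relative *Akr1b3* was higher, at 0.841 to 2.61 CPM and 2.72 to 5.34 CPM (1.53, adjusted p = 0.0274). That call was lost in 6 of 13 alternative fits, and 25.2% of the 3′ windows of *Akr1b3* recur in other genes. *Ptges3l*, named for its likeness to a cochaperone gene, was lower than in 2W cells (-1.05, adjusted p = 0.0134), a call lost without replicate 4 of 3W cells (adjusted p = 0.0507). Its call against mono cells was lost in 5 of 13 alternative fits. *Ptges3l* shares 605 exonic bases with *Gm27029*, and 23.9% of its 3′ windows recur in 10 other genes. *Akr1b7* shares 348 exonic bases with *Gm13857* on the opposite strand.

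Among phospholipases A2, *Pla2g7*, whose product is the secreted platelet-activating factor acetylhydrolase, was the 1 gene called between 2W cells and mono cells. It had 4.35, 1.78, 1.26 and 2.28 CPM in mono cells, 11.1, 11.8, 17.5 and 17.1 CPM in 2W cells, and 7.17, 3.72, 4.45 and 4.54 CPM in 3W cells, and the 2W cells lay above all other libraries. It was 5.96-fold higher in 2W cells than in mono cells (log2 fold change 2.58, adjusted p = 0.00834) and fell by 1.53 on the log2 scale from 2W cells to 3W cells (adjusted p = 0.00873, edgeR). The mean epithelial marker sum was also highest in 2W cells (101 CPM, against 68.7 CPM in 3W cells and 2.03 CPM in mono cells), and its part in this difference was not tested. Between 3W cells and mono cells *Pla2g7* overlapped and was not called (log2 fold change 1.02, edgeR adjusted p = 0.0974). *Pla2g7* shares 319 exonic bases with *1700071M16Rik* on the opposite strand. *Pla2g12a* and *Pnpla8* were lower in 3W cells than in mono cells (log2 fold changes -0.80 and -0.49, adjusted p = 0.00288 and 0.0385), and the call of *Pnpla8* was lost in 8 of 13 alternative fits. These were the 2 genes called of 10 tested in the group, beside 26.4% of all tested genes called and 13.0% called lower.

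Of 6 other receptor genes tested, *Ptgfrn*, which encodes a partner protein of the FP receptor, was called, 1.91-fold higher in 3W cells than in mono cells (57.7 ± 10.7 against 30.05 ± 7.84 CPM; SD, n = 4 each; edgeR adjusted p = 0.00288). Of 5 genes of the lipoxygenase branch tested, the glutathione transferase gene *Mgst2* was called, higher in 3W cells than in mono cells (3.58 ± 0.869 against 1.06 ± 0.902 CPM; SD, n = 4 each; edgeR adjusted p = 0.0316). This call was lost in 7 of 13 alternative fits. In 2W cells *Mgst2* ranged from 0.737 to 8.15 CPM, with a mean of 4.89 CPM, above that of 3W cells. Its log2 fold change in 2W cells against mono cells was 2.24 (edgeR adjusted p = 0.341, or 0.0416 without replicate 2 of 2W cells). Between 3W cells and mono cells 26.4% of all tested genes were called, so that 1 call in each group is no result about either.

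EP2 and EP4 signal through cyclic AMP. Of 32 genes of this signalling tested, 0 were called between 2W cells and mono cells, beside 0.991% of all tested genes. In that comparison 3 of the 32 had an unadjusted p under 0.05 in edgeR's test, beside 829 of all 11199 genes tested. In 3W cells 3 were called higher and 6 lower than in mono cells, and 2 higher and 1 lower than in 2W cells. These shares were near those of all tested genes (26.4% called between 3W cells and mono cells and 10.7% between 3W cells and 2W cells), so that the counts are no result about the group. *Prkar2b*, a regulatory subunit of protein kinase A, had 68.9 to 98.6 CPM in mono cells, 66.8 to 91.0 CPM in 2W cells and 143 to 170 CPM in 3W cells (log2 fold change 0.98 against 2W cells, adjusted p = 0.00329, edgeR). *Adcy6*, an adenylyl cyclase, was higher in 3W cells than in 2W cells by 0.97 on the log2 scale (adjusted p = 0.0115). That call was lost with all 12 libraries in one fit (adjusted p = 0.120) and without replicate 1 of 3W cells (0.0523). The phosphodiesterase genes *Pde4b* and *Pde3b* were lower in 3W cells than in mono cells (log2 fold changes -0.86 and -0.80, adjusted p = 0.00101 and 0.00963), as was *Gnai1*, an inhibitory G protein subunit (-1.26, adjusted p = 0.00466). *Pde3b* was also the gene called lower than in 2W cells, a call lost in 7 of 13 alternative fits. *Adcy6* shares 605 exonic bases with *Gm29331* on the opposite strand.

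**Figure D5:**
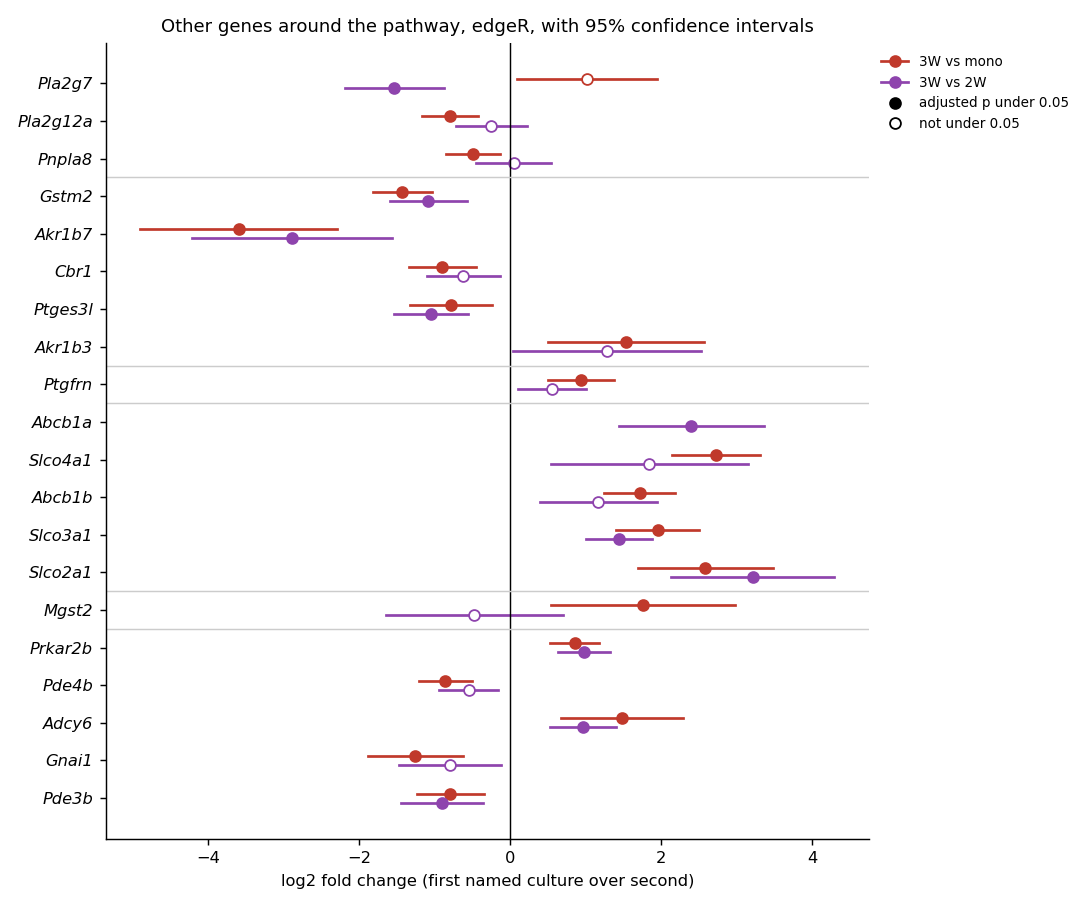
Log2 fold changes (horizontal axis) with 95% confidence intervals of 20 other genes around the pathway, in 3W cells over mono cells and over 2W cells. Grey lines part, from the top, phospholipases, other synthases, other receptors, transport and turnover, the lipoxygenase branch and cyclic AMP signalling. *Abcb1a* is not drawn against mono cells, where it had at most 3 counts per library, and the transport genes drawn lie to the right of 0. These are the genes with the smallest p of that group. Of the 9 tested there, 7 had a positive log2 fold change in each comparison. *Slco4a1* and *Abcb1b* were not called against 2W cells.

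Likeness to *Ptgs2* and *Ptges* was described by Pearson's r of log2 CPM over the 12 libraries, which share culture and depth. Among 8699 genes with a mean log2 CPM above 3, those most like *Ptgs2* were *Nadk*, *Zfp36l1*, *Sec24b*, *G3bp1* and *Nras*, with r from 0.949 to 0.966. After the mean of each culture was subtracted, their r was still 0.845 to 0.890. Those most like *Ptges* were *Ell2*, *Timp1*, *Arl4c*, *Cp* and *Nrp2*, with r from 0.958 to 0.969, and 0.600 to 0.833 after subtraction. These values describe which profiles run together in these libraries and carry no test.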

How the data were processed

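The authors made QuantSeq 3′ FWD libraries of sorted PSCs, trimmed single-end reads, aligned them with STAR to GRCm38, and counted them with featureCounts against Ensembl genes. FastQC and DESeq2 are also named in the submitters' processing notes. The deposited values are raw counts per gene, whole numbers with different totals per library, and all 12 columns matched samples by the numbers they carry. Molecular identifiers are not named, so limits of detection cover counting error only.

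Genes were kept with filterByExpr, libraries scaled by TMM, and cultures compared in pairs with glmQLFit and glmQLFTest in edgeR 4.0.16 (R 4.3.3), each on 8 libraries with no block. P-values were adjusted over all genes tested and called under 0.05. Fold changes use edgeR's prior count of 0.125. Single values were tested by two-sided exact permutation (scipy 1.17.1). Alternatives were DESeq2's size factors in edgeR, no filter, DESeq2 1.42.0, a joint fit of the 12 libraries, a block on replicate number and leaving out each library. The edgeR and DESeq2 fits were tested on simulated data. The 10 genes and all lists were chosen with earlier results of these data known. Named genes were the 10, up to 5 called genes with the smallest p per wider list, the 5 most like *Ptgs2* and *Ptges*, and the highest marker of each list. Positions come from GENCODE M21, and start regions from RefSeq, which held one for 9 of the 10 genes.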

Additional observations from a re-analysis of the deposited data

Results flagged for a closer look

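In groups of 4 libraries, a library was marked when its gap to the nearest other exceeded the critical share of the group's range. Of 98 groups examined, 9 were marked, and chance marks about 1 in 20. Among the 10 genes, the marks were all at very low counts. *Ptgds* was at 0.160 CPM in replicate 4 of 2W cells and at 0 in the other 3. In replicate 4 of 3W cells *Ptger2* was at 1.04 CPM and *Ptgfr* at 0.130 CPM, and both were at 0 in the other 3, so that the ratio of *Ptger2* to *Ptger4* was 0.119 there. That library also had the highest macrophage marker sum, 87.8 CPM.

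Among the wider genes, *Pde3b* was low in replicate 4 of 3W cells (10.9 CPM, nearest 17.2 CPM), *Cbr1* was low in replicate 3 of 3W cells (23.8 CPM, nearest 31.4 CPM), *Slco4a1* was high in replicate 2 of 3W cells (21.9 CPM, nearest 18.3 CPM), and *Ptgfrn* was low in replicate 2 of 2W cells (27.8 CPM, nearest 41.7 CPM). The summed mesenchymal markers were low in replicate 2 of mono cells (13620 CPM, nearest 15881 CPM).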

How the results depend on the processing

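Over 13 alternatives of each comparison, the log2 fold changes of the 6 testable genes kept direction and side of the threshold in 218 of 234 cases. The calls of *Ptges* in 3W cells held throughout. Of the others, 6 calls were lost and 1 gained, all with a library left out and given beside the genes, and 9 changed sign, none of them called. With a library left out, 2W cells against mono cells ranged from -0.30 to 0.23 for *Ptgs2*, -0.21 to 0.17 for *Pla2g4a*, -0.095 to 0.47 for *Ptger4* and -0.070 to 0.24 for *Pde3b*, 3W cells against mono cells from -0.43 to 0.13 for *Ptger4*, and 3W cells against 2W cells from -0.13 to 0.14 for *Pnpla8*. Genes called among the 10 then numbered 0 to 0, 2 to 4 and 1 to 3 in 2W cells against mono cells, 3W cells against mono cells and 3W cells against 2W cells, the lowest of the last (1) without replicate 1 of 3W cells. Wider genes called numbered 1 to 3 (3 without replicate 2 of 2W cells), 15 to 31 (15 without replicate 1 of 3W cells) and 7 to 15. In 2W cells against mono cells, 2 wider genes were called with DESeq2's Wald test and 2 with all 12 libraries in one fit. The cause of these changes was not tested.

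Same-numbered libraries correlated at -0.05 to 0.34 in their deviations from culture means, not above 0.1 for every pair of any comparison, and each library matched its own number best in 3, 2 and 2 of 4 pairs. With the replicate number as a block, 0, 3 and 3 of the 10 genes and 1, 25 and 9 wider genes were called, and calls over all genes between 3W cells and 2W cells numbered 752 against 1230. Over all genes, 2W cells against mono cells gave 177 calls without the filter, 277 with DESeq2 and 262 in one fit of 12 libraries, against 111. With a library left out, calls over all genes ranged from 61 (without replicate 4 of mono or of 2W cells) to 233 (without replicate 2 of 2W cells) in that comparison, from 497 (without replicate 2 of 3W cells) to 2107 (without replicate 2 of 2W cells) between 3W cells and 2W cells, and from 2228 to 4266 between 3W cells and mono cells. At 4 libraries per culture and these totals, values of genes under about 10 counts per library are the least precise.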
